A study of Mus musculus with 6 samples.

Results

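The 9 genes described here encode tetraspanins, and they are Cd9, Cd63, Cd81, Cd82, Cd151, Cd37, Cd53, Tspan4 and Tspan33. They were picked from 52550 gene identifiers by symbol, because Cd9 and Cd63 lay above every WT liver in every TG liver. Each of the 9 symbols matched 1 row of the count table, and all 9 passed the filter on low counts. Whole-liver RNA came from 3 mice carrying the Slc7a11-LTG transgene (TG) and from 3 controls (WT). All 6 mice were male and 8 weeks old. All had eaten an MCD diet (without methionine or choline) for 1 week, so the diet is common to both groups. The labels call the molecule genomic DNA, but their protocols describe RNA extraction and an RNA library kit, and the values were read as RNA counts. No source used here names the promoter of the transgene or the cells it acts in. The design implies 1 comparison, TG against WT liver on this diet. The 9 genes were chosen on that comparison, so their differences are given as a description without a test.

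Tetraspanins are small proteins that pass through the membrane several times and gather integrins, immunoglobulin-superfamily proteins and proteases into patches of the cell surface. Several of them are also carried on extracellular vesicles, where CD9, CD63 and CD81 are the usual markers, and CD63 cycles through late endosomes and lysosomes. In the liver, CD81 is a surface protein of hepatocytes and serves as an entry receptor for hepatitis C virus in humans, CD9 and CD63 are among the genes that mark lipid-laden macrophages of fatty liver, and CD37 and CD53 are mostly confined to leukocytes.

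Libraries held 16016640 to 17463329 counts, and levels are given as CPM, the count per 1000000 counts of that total. At this depth a count of 3, the smallest number told from 0, is 0.172 to 0.187 CPM. The transgene's own gene, Slc7a11, had 72729, 24359 and 57242 counts in TG replicates 1 to 3, against 46, 44 and 204 in WT replicates 1 to 3. On the first principal component TG replicates 1 to 3 lay at -37.1, -66.8 and 2.9, against 29.9, 60.1 and 10.9 for WT replicates 1 to 3, so the groups did not overlap, with TG replicate 3 nearer to WT replicate 3 than to the other TG livers. The TMM scaling used for fold changes multiplied the library sizes by 0.977, 1.02 and 1.15 in TG and by 0.936, 0.826 and 1.13 in WT livers. Against scaling by library size only, it moved the median log2 difference of all genes by 0.12. Fewer cells of a type and less RNA per cell cannot be told apart in whole liver.

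Cd9 and Cd63 were the genes that fixed the choice, and both stood higher in every TG liver. Cd9, which encodes a surface tetraspanin of platelets, macrophages and many epithelia, had 41.4, 48.8 and 44.5 CPM in TG replicates 1 to 3, against 15.2, 13.1 and 22.9 CPM in WT replicates 1 to 3. The TG mean was 44.9 ± 3.71 CPM and the WT mean 17.1 ± 5.16 CPM (SD over 3 livers, as for every mean given here). The log2 fold change was 1.30, with a standard error (SE) of 0.17. The 3 TG livers lay close together, and the lowest of them was well above the highest WT liver. Cd63, the late-endosomal tetraspanin, had 52.7, 71.0 and 77.2 CPM in TG livers, against 17.9, 18.9 and 41.4 CPM in WT livers. The TG mean was 66.9 ± 12.7 CPM and the WT mean 26.1 ± 13.3 CPM, with a log2 fold change of 1.28 (SE 0.26). The groups did not overlap, but WT replicate 3 stood well above the other WT livers and nearest to the TG livers.

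A processed pseudogene, Cd63-ps, also collected reads, and reads of near-identical copies may have been split in counting. It had 74, 87 and 108 counts in TG livers, against 15, 27 and 60 counts in WT livers, which is 6.56% to 7.68% of the summed counts in TG and 4.73% to 8.18% in WT livers. The sum of both was 57.0, 75.9 and 83.5 CPM in TG livers, against 18.8, 20.6 and 44.9 CPM in WT livers, so the groups stayed apart with these reads added.

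**Figure D1:**
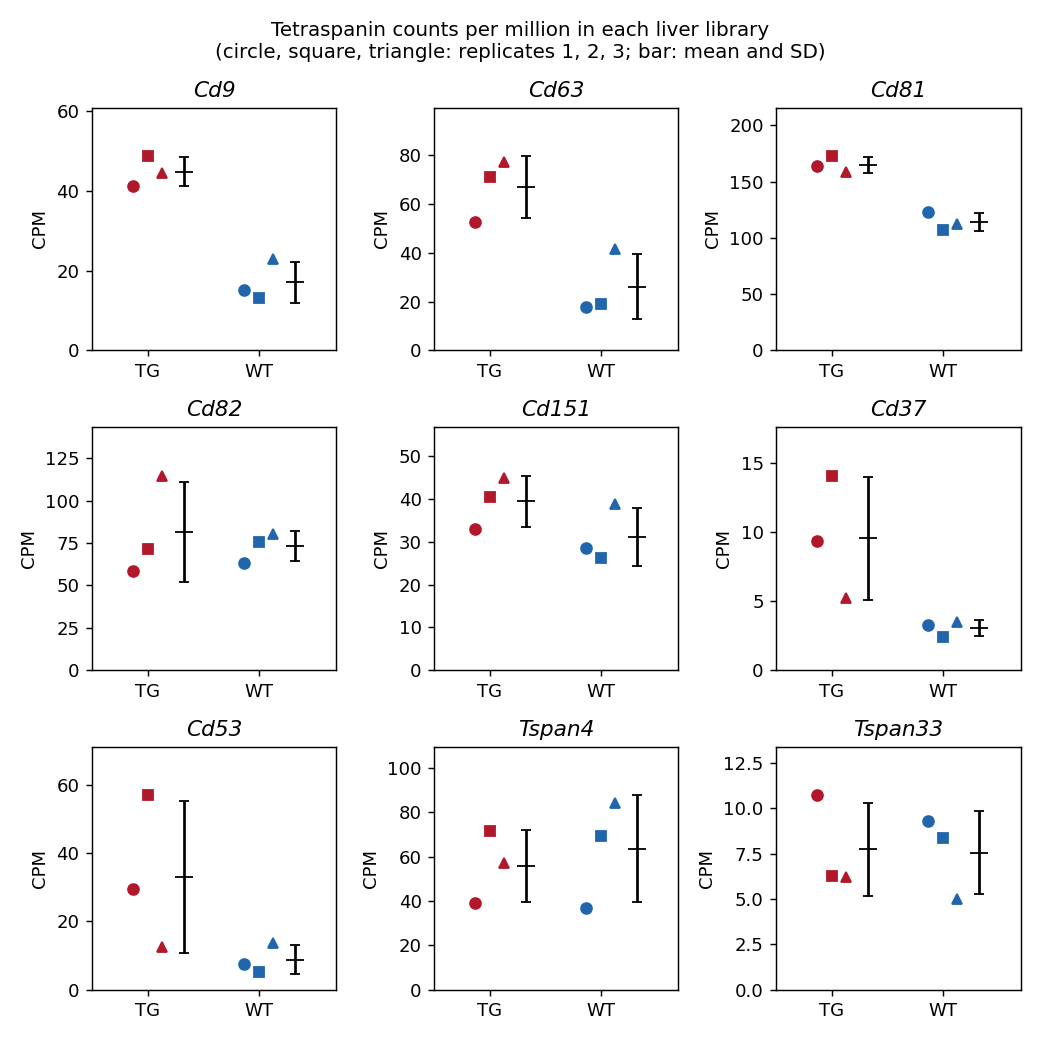
CPM of the 9 tetraspanins (vertical axes, from 0) in the 3 TG and 3 WT livers. Symbols mark replicates 1 to 3 and the bar gives mean and SD. Cd9, Cd63, Cd81 and Cd37 do not overlap between the groups, and Cd53 is at 56.9 CPM in TG replicate 2 but 12.6 CPM in TG replicate 3, within the WT livers.

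Of the 9 tetraspanins, 4 had all 3 TG livers above all 3 WT livers, and none had them all below; the other 5 overlapped. Among the 14031 genes tested, 11.2% lay above in the same way and 2.25% below. Since the choice used this comparison, nothing is read from that count. The 4 genes, Cd9, Cd63, Cd81 and Cd37, were also the ones that did not overlap with TMM-scaled CPM, where 9.22% of all genes lay above and 6.14% below. Over the 9 genes the median log2 fold change was 0.40, against -0.03 over all genes tested, with 6 genes above 0 and 3 below. Cd53 lay just outside, with a lowest TG value of 12.6 CPM and a highest WT value of 13.6 CPM. Cd37 and Cd63 lay inside, with lowest TG values of 5.20 and 52.7 CPM and highest WT values of 3.47 and 41.4 CPM. With TMM scaling Cd81 lay just inside, with a lowest TG value of 138 CPM and a highest WT value of 131 CPM.

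The stretches before the start sites of Cd9 and Cd63 are shown because these genes led to the choice of the 9, with those of Cd81, the highest of them per length, and Cd53, a leukocyte gene. Sequences are from RefSeq (build GRCm38.p6, the assembly of mm10), 5′ to 3′ on the gene's strand, and end at the annotated start site, except that 31 bases of Cd9 inside an annotated exon of the gene are left off. The 250 bases before the Cd9 start site lie wholly inside annotated exons. Beyond those 31 bases the exons are of Gm26728, on the other strand. Capitals mark matches to the motifs searched below.
Cd9, chr6:125494792-125495010, minus strand: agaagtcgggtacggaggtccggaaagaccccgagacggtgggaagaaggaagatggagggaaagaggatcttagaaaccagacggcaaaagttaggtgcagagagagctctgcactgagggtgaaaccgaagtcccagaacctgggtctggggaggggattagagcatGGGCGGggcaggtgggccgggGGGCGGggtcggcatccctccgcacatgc
Cd63, chr10:128909095-128909344, plus strand: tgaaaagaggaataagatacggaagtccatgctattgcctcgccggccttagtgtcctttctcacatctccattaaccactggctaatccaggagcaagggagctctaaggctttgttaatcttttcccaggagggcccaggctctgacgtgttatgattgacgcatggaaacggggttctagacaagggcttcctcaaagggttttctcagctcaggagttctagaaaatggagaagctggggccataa
Cd81, chr7:143052500-143052749, plus strand: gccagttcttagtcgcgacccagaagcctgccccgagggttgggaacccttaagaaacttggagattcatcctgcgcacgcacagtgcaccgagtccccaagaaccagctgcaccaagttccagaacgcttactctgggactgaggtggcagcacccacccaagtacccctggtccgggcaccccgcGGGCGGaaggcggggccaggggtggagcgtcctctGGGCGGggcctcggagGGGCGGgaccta
Cd53, chr3:106790150-106790399, minus strand: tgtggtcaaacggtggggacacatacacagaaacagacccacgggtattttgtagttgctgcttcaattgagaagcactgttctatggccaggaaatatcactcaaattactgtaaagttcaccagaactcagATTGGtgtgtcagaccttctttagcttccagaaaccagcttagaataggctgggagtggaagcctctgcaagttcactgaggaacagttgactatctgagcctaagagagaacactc

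The last 250 bases before the start were searched on both strands for the GC box GGGCGG, the E box CACGTG, the box named CCAAT, the TATA box TATAAA, the PU.1 motif GAGGAAGT, the AP-1 motif TGANTCA and the antioxidant response element TGACNNNGC. Cd9 held GGGCGG at 81 to 76 and at 60 to 55 bases before its start, and no other motif. Cd81 held GGGCGG 3 times, the nearest at 12 to 7 bases before its start. The last 11 bases of the Cd81 window lie inside an annotated exon of the gene, and this nearest match reaches into them. Of 32851 mouse promoter windows of this length, 32.7% hold GGGCGG. Cd53 held CCAAT alone, at 117 to 113 bases, a motif that 33.8% of windows hold. No match to the 7 motifs was in the Cd63 window, so the windows of Cd9 and Cd63 shared none of them. The Cd63 window lies inside the gene as annotated by GENCODE, which runs from 128900989 to 128912822. The stretch before that first base was not searched, so nothing is said of motifs there. The GC content was 61.6% in the Cd9 window and 65.6% in that of Cd81, and lower, 48.8% and 45.2%, in those of Cd63 and Cd53. CACGTG is in 6.02%, TATAAA in 12.4%, GAGGAAGT in 2.44%, TGANTCA in 6.75% and TGACNNNGC in 10.2% of windows. All matches were apart from each other, and a match describes letters only.

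Among the broadly expressed surface tetraspanins, Cd81 stood modestly higher in TG livers and Cd82 and Cd151 overlapped. Cd81, whose product pairs with the immunoglobulin-superfamily protein EWI-2, had 164, 173 and 158 CPM in TG livers, against 123, 107 and 113 CPM in WT livers. The TG mean was 165 ± 7.25 CPM and the WT mean 114 ± 8.15 CPM, and the log2 fold change was 0.40 (SE 0.20), with the groups apart. With TMM scaling the gap narrowed, to 138 CPM in the lowest TG liver and 131 CPM in the highest WT liver. Cd82, known from human cancers as the metastasis suppressor KAI1, had 58.5, 71.2 and 115 CPM in TG livers, against 63.2, 75.4 and 80.4 CPM in WT livers. TG replicate 3 was the highest and TG replicate 1 the lowest of all 6 livers, and the log2 fold change was 0.00 (SE 0.23). Cd151, a partner of the laminin-binding integrins, had 32.9, 40.5 and 44.8 CPM in TG livers, against 28.4, 26.2 and 39.0 CPM in WT livers. Its log2 fold change was 0.22 (SE 0.15), and only WT replicate 3 reached into the TG range.

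The leukocyte tetraspanins Cd37 and Cd53 were highest in TG replicates 1 and 2. Cd53, which is found on myeloid and lymphoid cells and associates with CD45, had 29.6, 56.9 and 12.6 CPM in TG replicates 1 to 3, against 7.54, 5.31 and 13.6 CPM in WT replicates 1 to 3. The TG mean was 33.03 ± 22.4 CPM and the WT mean 8.81 ± 4.28 CPM, a log2 fold change of 1.87 (SE 0.56), and TG replicate 3 lay inside the WT range. Cd37, a tetraspanin of B cells and myeloid cells that binds Dectin-1, had 9.36, 14.1 and 5.20 CPM in TG livers, against 3.27, 2.37 and 3.47 CPM in WT livers. All TG livers were above the WT livers, again with TG replicate 3 lowest, and the log2 fold change was 1.57 (SE 0.42). Without TG replicate 3 the log2 fold change of Cd53 was 2.25 and that of Cd37 was 1.87, and without TG replicate 2 they were 1.21 and 1.16.

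Summed Kupffer cell, neutrophil and platelet markers were lowest in TG replicate 3 among TG livers, as the 2 leukocyte genes were. Summed markers of recruited and lipid-associated macrophages were lowest in TG replicate 1. The part of these cells in the result was not tested. Kupffer cell and macrophage markers, 12 of 12 tested with a log2 fold change above 0, summed to 746 to 3778 CPM in the TG and 344 to 774 CPM in the WT livers, with TG replicate 3 lowest among TG livers and inside the WT range. As a median over the list, the log2 difference from the WT mean came to 2.11, 2.73 and 0.30 for TG replicates 1 to 3, against -0.10, -0.42 and 0.38 in WT replicates 1 to 3. The 8 markers of recruited and lipid-associated macrophages, all above 0, summed to 147 to 200.2 CPM in the TG and 39.9 to 87.7 CPM in the WT livers, without overlap. Their median difference was 0.55 in TG replicate 3, against 0.56 in WT replicate 3. Single genes of the list differed in order over the livers. Gpnmb, a glycoprotein of lipid-laden macrophages, had 18.2, 24.9 and 28.7 CPM in TG livers, against 2.43, 1.19 and 9.34 CPM in WT livers, and Lgals3, which encodes galectin 3, had 58.5, 56.1 and 79.7 CPM in TG livers, against 9.14, 6.18 and 28.9 CPM in WT livers. By library size both were highest in TG replicate 3, as Cd63 was. With TMM scaling Cd63 was highest in TG replicate 2, at 70.0 CPM against 67.1 CPM in TG replicate 3. The monocyte receptor gene Ccr2 had 14.3, 31.4 and 4.97 CPM in TG livers, against 3.56, 1.19 and 5.35 CPM in WT livers. Trem2, Fabp5, Itgax and Ly6c2 were, like Ccr2, lowest in TG replicate 3 among TG livers, and Spp1 was highest in TG replicate 2. Neutrophil markers, 5 of 5 tested above 0, summed to 6.48 to 194 CPM in the TG and 2.31 to 7.18 CPM in the WT livers, where Ly6g and Mpo were at 0 in every WT liver. Platelet and megakaryocyte markers, whose cells carry CD9 and CD63, summed to 7.65 to 15.9 CPM in the TG and 4.39 to 5.99 CPM in the WT livers, without overlap. Of these 6 markers 2 passed the filter, both above 0, and Gp1bb was at 0 in WT. By the median of the platelet list the groups overlapped. It was 1.07, 0.62 and 0.02 in TG replicates 1 to 3, against -0.09, 0.12 and -0.04 in WT replicates 1 to 3.

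The summed level of B and plasma cell markers did not overlap between the groups, and that of hepatocyte markers lay lower in TG livers, but the medians of both lists overlapped. B and plasma cell markers summed to 7.59 to 29.6 CPM in the TG and 5.41 to 7.30 CPM in the WT livers, with 2 of 4 tested above 0. Jchain, the largest of them, had 18.6, 23.3 and 4.15 CPM in TG livers, against 2.67, 5.37 and 2.47 CPM in WT livers, and overlapped. T and NK cell markers summed to 3.21 to 7.79 CPM in the TG and 1.498 to 4.57 CPM in the WT livers, with 3 of 3 tested above 0. Sinusoidal endothelial markers summed to 180 to 231 CPM in the TG and 58.4 to 210 CPM in the WT livers, with 5 of 7 above 0. Stellate cell and fibroblast markers summed to 356 to 444 CPM in the TG and 219 to 392 CPM in the WT livers, with 7 of 8 above 0. Among the remaining lists, cholangiocyte markers summed to 8.83 to 17.4 CPM in the TG and 8.49 to 19.4 CPM in the WT livers, with 1 of 4 tested above 0. Erythroid markers summed to 28.45 to 42.03 CPM in the TG and 18.2 to 44.1 CPM in the WT livers, with 2 of 3 tested above 0. Mast cell and basophil markers reached at most 0.916 CPM in any TG and 0.119 CPM in any WT liver, and Mcpt8, Fcer1a and Ms4a2 were at 0 in WT. The 5 hepatocyte markers, which identify the tissue as liver, summed to 82760 to 94570 CPM in the TG and 97420 to 136300 CPM in the WT livers, and 1 of 5 had a log2 fold change above 0. Alb, which encodes albumin, gave 70960 to 79600 CPM of this in TG and 83890 to 112600 CPM in WT livers. Hnf4a, a transcription factor of hepatocytes, had 983, 772 and 806 CPM in TG livers, against 680, 742 and 760 CPM in WT livers, and Apoa1, Cps1 and Cyp2e1 overlapped.

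**Figure D2:**
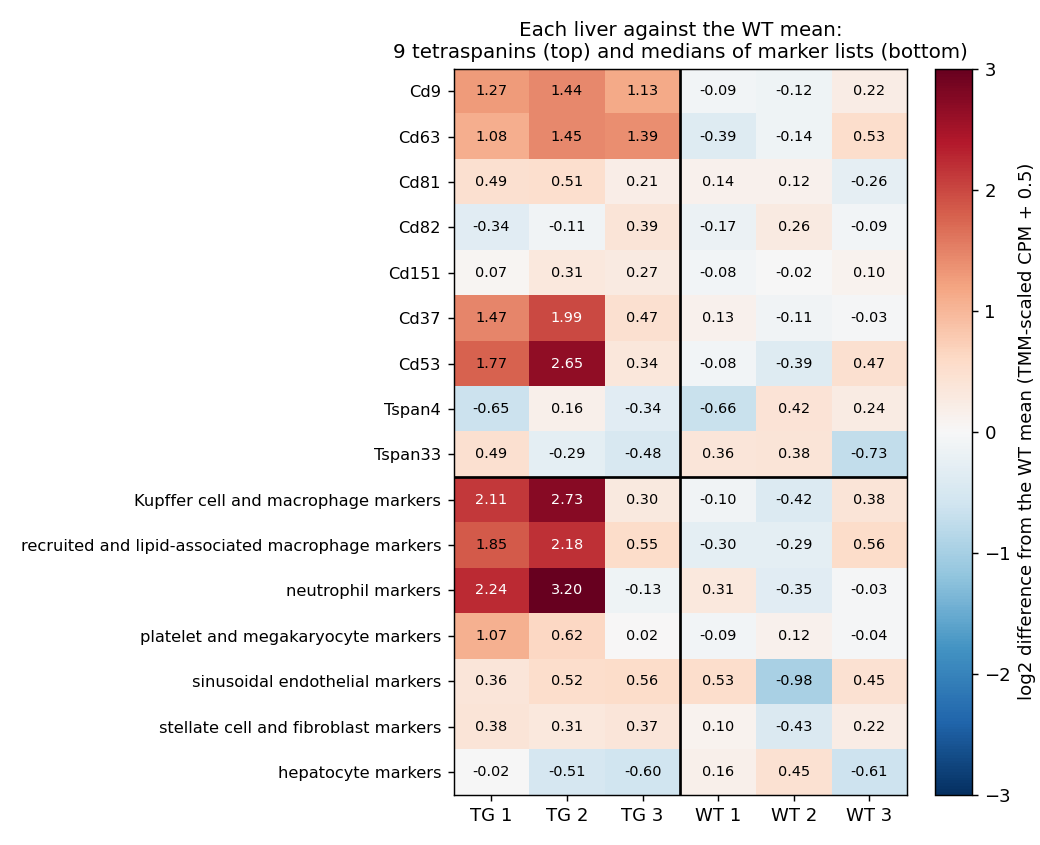
Log2 difference of each liver (columns) from the WT mean, on TMM-scaled CPM plus 0.5, for the 9 tetraspanins and for the medians of 7 marker lists. In TG replicate 3 Cd53 is at 0.34 and Cd37 at 0.47, against 2.65 and 1.99 in TG replicate 2, while Cd9 is at 1.13 and 1.44 and Cd63 at 1.39 and 1.45 in the same livers.

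Ratios of counts within a library do not depend on scaling, and by them Cd53 kept closest to a leukocyte gene. Cd9 and Cd63 varied more than Cd53 and Cd37, and less than the other members. The ratio to Ptprc, which encodes the pan-leukocyte antigen CD45, was chosen after the values were seen. Ptprc itself had 43.4, 84.1 and 20.9 CPM in TG livers, against 15.4, 7.93 and 22.8 CPM in WT livers. The ratio of Cd53 to Ptprc was 0.681, 0.677 and 0.605 in TG livers, against 0.489, 0.669 and 0.595 in WT livers. Its highest value was 1.39 times its lowest, and the means were 0.654 ± 0.0427 in TG and 0.584 ± 0.0909 in WT livers. The ratio of Cd37 to Ptprc was 0.216, 0.168 and 0.249 in TG livers, against 0.212, 0.299 and 0.152 in WT livers, with overlapping groups and a highest value 1.97 times the lowest. The ratio of Cd9 to Ptprc was 0.954, 0.580 and 2.13 in TG livers, against 0.985, 1.65 and 1.01 in WT livers, and that of Cd63 ran from 0.844 to 3.70 in TG and from 1.16 to 2.39 in WT livers. Both were highest in TG replicate 3, the TG liver with the least Ptprc. The group means were 1.22 ± 0.811 in TG and 1.21 ± 0.380 in WT livers for Cd9. For Cd63 they were 1.92 ± 1.55 in TG and 1.79 ± 0.613 in WT livers. Their highest values were 3.68 and 4.38 times their lowest. For Cd81, Cd151, Tspan4, Cd82 and Tspan33 the highest ratio to Ptprc was 6.56, 6.86, 10.3, 11.2 and 14.1 times the lowest. Set against Cd81 instead, Cd9 was at 0.253, 0.283 and 0.281 in TG livers, against 0.124, 0.123 and 0.204 in WT livers, and the groups stayed apart. The ratio of Cd63 to Cd81 was 0.322, 0.411 and 0.488 in TG livers, against 0.146, 0.177 and 0.368 in WT livers, and the groups overlapped.

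**Figure D3:**
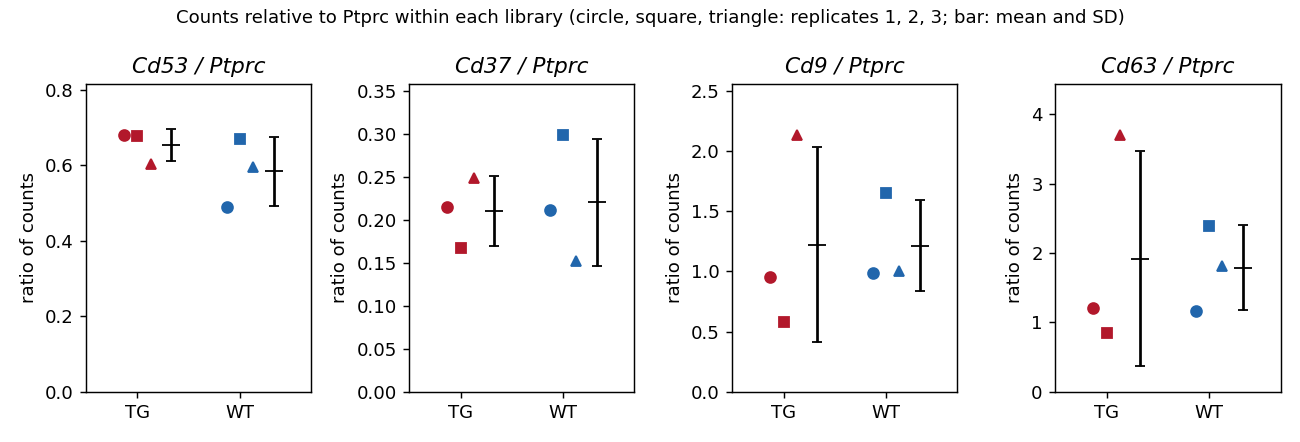
Ratio of the counts of Cd53, Cd37, Cd9 and Cd63 to those of Ptprc (vertical axes, from 0) in 3 TG and 3 WT livers, with mean and SD. Cd53 keeps between 0.489 and 0.681 in all 6 livers, while Cd9 and Cd63 reach 2.13 and 3.70 in TG replicate 3.

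Tspan4 and Tspan33 did not separate the groups. Tspan4, which is needed for the membrane organelles called migrasomes, had 38.9, 71.4 and 57.0 CPM in TG livers, against 36.9, 69.5 and 84.0 CPM in WT livers. The spread within each group was larger than the difference, with a log2 fold change of -0.31 (SE 0.33). Tspan33, one of the tetraspanins that bring the protease ADAM10 to the cell surface, had 10.7, 6.30 and 6.19 CPM in TG livers, against 9.32, 8.37 and 4.99 CPM in WT livers, with a log2 fold change of -0.12 (SE 0.41). Tspan4 shares 292 bases with Chid1 on the other strand, a gene with 238 to 782 counts, and Cd82 shares 10322 bases with Gm10804, which had 1 to 47 counts. No source used here states the strand setting of the counting, so reads of such pairs cannot be told apart. The 9 genes are on chromosomes 2, 3, 6, 7 and 10, and 4 of them (Cd37, Cd81, Cd151, Tspan4) are on chromosome 7, where Cd151 ends at 141471473 and Tspan4 starts at 141475240 (mm10).

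Levels of different genes were compared as CPM per kb of annotated exon. Cd81 was the highest of the 9 in both groups, at 57.3 ± 2.52 CPM per kb in TG and 39.6 ± 2.83 CPM per kb in WT livers. In TG livers the order went on with Cd82, Tspan4, Cd9, Cd53, Cd63, Cd151, Cd37 and Tspan33, where Cd81 stood apart from Cd82 and Cd151 from Cd37, and all other neighbours overlapped. In WT livers Tspan4, Cd82, Cd151, Cd9, Cd63, Cd53, Tspan33 and Cd37 followed, where Cd82 stood apart from Cd151 and Cd53 from Tspan33, and all other neighbours overlapped. Cd9 was at 22.0 ± 1.81 CPM per kb in TG and 8.35 ± 2.53 CPM per kb in WT livers, which put it at rank 4 of the 9 in TG and rank 5 in WT. Cd63 was at 18.2 ± 3.46 CPM per kb in TG and 7.09 ± 3.61 CPM per kb in WT livers. With the longest annotated transcript as the length, the means were 36.56 CPM per kb in TG and 13.9 CPM per kb in WT livers for Cd9, and 102.6 CPM per kb in TG and 70.99 CPM per kb in WT livers for Cd81. Cd63 then ranked 5 in place of 6 in TG livers, and the order in WT livers was kept.

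Among all 31 tetraspanins with a row, Tspan31 was highest per length, at 73.7 ± 14.9 CPM per kb in TG and 65.1 ± 3.45 CPM per kb in WT livers. Tspan12, which acts in Norrin and frizzled 4 signalling in the retina, was at 41.2 ± 7.54 CPM per kb in TG and 43.2 ± 2.67 CPM per kb in WT livers. The 9 genes together made up 49.8%, 61.0% and 56.3% of the summed level in TG livers, against 44.9%, 48.9% and 52.6% in WT livers. The share of Cd9 was 6.22%, 6.86% and 6.51% in TG livers, against 3.02%, 2.60% and 3.91% in WT livers, and that of Cd63 was 4.39%, 5.53% and 6.26% in TG livers, against 1.98%, 2.08% and 3.92% in WT livers. Both shares were higher in every TG liver than in any WT liver, which the choice of both genes on these livers partly fixed. The share of Cd81 was 17.45%, 17.2% and 16.4% in TG livers, against 17.36%, 15.04% and 13.6% in WT livers, and overlapped.

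**Figure D4:**
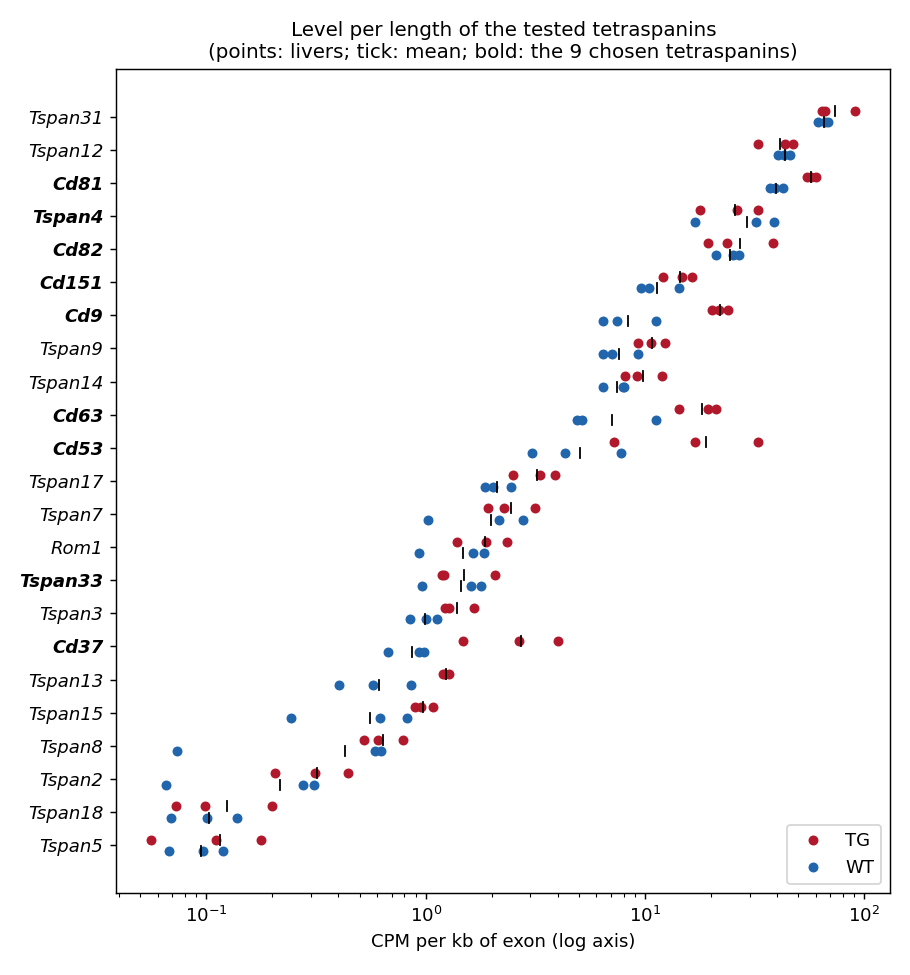
CPM per kb of exon (log axis) of the 23 tested tetraspanins in 3 TG (upper points) and 3 WT (lower points) livers, ordered by the WT mean, with a tick at each mean. Cd9 at 22.0 in TG and 8.35 in WT and Cd63 at 18.2 and 7.09 are set apart by group. Cd81, Cd37, Tspan3, Tspan13, Tspan14, Tspan15 and Tspan17 are also set apart, while Tspan31 and Tspan12 overlap.

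None of the other tetraspanins passed the test. Of 23 listed, 22 had a row and 14 passed the filter on low counts. EdgeR's quasi-likelihood test with Benjamini-Hochberg adjustment over all genes called 0 of these 14, as it called 0.0% of 14031 genes. The smallest adjusted p of any gene by edgeR was 0.164, so the transgene's own gene, Slc7a11, was not called either. A missing call by edgeR is therefore not read as no change, here or for the lists below. At an unadjusted p below 0.05 it gave 2 higher and 0 lower among the 14, and 1218 higher (8.68%) and 333 lower (2.37%) among all genes. DESeq2 called none of them, and 354 genes higher (2.52%) and 36 lower (0.257%) among all, and limma voom called 1 gene of all (0.00713%). In 13 of the 14 the log2 fold change was above 0, with a median of 0.31, while 46.2% of all genes were above 0. By library size 5 of the 14 had all TG livers above all WT livers, against 11.2% of all genes. With TMM scaling 3 did, against 9.22% of all genes.

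The values nearest to a call were those of Tspan13 and Tspan9. Tspan13 had 3.02, 3.15 and 2.98 CPM in TG livers, against 1.42, 1.00 and 2.11 CPM in WT livers, a log2 fold change of 0.92 (SE 0.33) with an adjusted p of 0.386 by edgeR. All 3 TG livers lay above the WT livers. Tspan9, a platelet tetraspanin that binds the collagen receptor GPVI, had 46.0, 52.7 and 61.5 CPM in TG livers, against 35.2, 31.8 and 46.2 CPM in WT livers, a log2 fold change of 0.38 (SE 0.14) with an adjusted p of 0.386 by edgeR. Its groups touched by library size and were apart with TMM scaling. Of the tetraspanins that, like Tspan33, escort ADAM10, only those with a mean of at least 1 CPM are given, Tspan15, Tspan17 and Tspan14. Their log2 fold changes were 0.73 (SE 0.36), 0.46 (SE 0.32) and 0.26 (SE 0.22), with edgeR adjusted p of 0.524, 0.648 and 0.716. Tspan3 was at 0.36 (SE 0.28), Tspan2 at 0.47 (SE 0.54), Tspan7 at 0.20 (SE 0.29) and the retinal tetraspanin Rom1 at 0.19 (SE 0.45), while Tspan31 was at 0.06 (SE 0.24) and Tspan12 at -0.22 (SE 0.22), on the same log2 scale. Tspan32, a tetraspanin of blood cells that did not pass the filter, had 34, 44 and 7 counts in TG livers, against 6, 7 and 8 counts in WT livers, highest in TG replicates 1 and 2.

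Of the 20 known partners of tetraspanins listed, 18 were tested and 0 passed edgeR's adjusted threshold. An unadjusted p below 0.05 was reached by 6, all higher, and by DESeq2 2 passed, Cd44 and Clec7a. Over all genes 8.68% were higher at that unadjusted p and 2.52% by DESeq2. Their median log2 fold change was 0.40, with 16 above 0 and 2 below, against 46.2% of all genes above 0. Cd44, a hyaluronan receptor of leukocytes that is found with CD82 and other tetraspanins, had 61.1, 78.6 and 22.3 CPM in TG livers, against 10.2, 7.55 and 18.4 CPM in WT livers, a log2 fold change of 2.13 (SE 0.50) with an adjusted p of 0.343 by edgeR and 0.00536 by DESeq2. Clec7a, which encodes Dectin-1, the partner of CD37, had 60.9, 61.8 and 30.1 CPM in TG livers, against 12.4, 7.49 and 27.5 CPM in WT livers, with an adjusted p of 0.343 by edgeR and 0.0246 by DESeq2. Both were lowest in TG replicate 3 among TG livers, yet above every WT liver. Ptprc, the partner of Cd53, had a log2 fold change of 1.65 (SE 0.53) and Itga4, an integrin subunit of leukocytes, one of 1.41 (SE 0.60), with edgeR adjusted p of 0.360 and 0.453. TG replicate 3 lay within the WT range for Ptprc and below all WT livers for Itga4. Without TG replicate 3, edgeR called Cd44, Itga4 and Ptprc higher, with adjusted p of 0.0302, 0.0378 and 0.0497. Without TG replicate 2 the log2 fold changes were 1.74 for Cd44, 0.72 for Itga4 and 1.01 for Ptprc, with edgeR adjusted p of 0.930, 0.973 and 0.930.

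Of the partners of Cd9, Cd63, Cd81, Cd151 and Tspan33 described next, none passed the adjusted threshold with edgeR. The immunoglobulin-superfamily proteins that bind CD9 and CD81 had log2 fold changes of 0.38 (SE 0.26) for Igsf8 and 0.21 (SE 0.33) for Ptgfrn. The integrin subunits that bind CD151 were at 0.31 (SE 0.20) for Itga3 and 1.11 (SE 0.52) for Itga6, which had 3.02, 5.21 and 7.07 CPM in TG livers, against 1.19, 1.12 and 4.46 CPM in WT livers. The proteases Adam10 and Adam17, sheddases regulated by tetraspanins, averaged 64.1 ± 13.3 CPM in TG against 40.6 ± 13.8 CPM in WT livers and 36.1 ± 11.1 CPM in TG against 20.5 ± 3.71 CPM in WT livers, with edgeR adjusted p of 0.427 and 0.375. Cd36, a fatty acid translocase found in complexes with tetraspanins, had 279, 228 and 151 CPM in TG livers, against 137, 84.7 and 149 CPM in WT livers, with an edgeR adjusted p of 0.433; its groups were apart by library size and overlapped with TMM scaling. Hbegf, a growth factor whose precursor binds CD9, was at 0.22 (SE 0.43) on the log2 scale. Timp1, a ligand of CD63 that did not pass the filter, had 12, 38 and 10 counts in TG livers, against 3, 4 and 8 counts in WT livers.

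Among 23 genes of endosomal sorting and vesicle release, Flot1 had the smallest p. All 23 were tested and 0 passed edgeR's adjusted threshold. With edgeR 3, all higher, had an unadjusted p below 0.05, and 1, Flot1, passed with DESeq2. The shares of all genes tested were 8.68% higher at that unadjusted p and 2.52% called higher by DESeq2. Of the 23, 16 had a log2 fold change above 0 and 7 below, while 46.2% of all genes were above 0. The median over the list was 0.08, against -0.03 over all genes tested. Flot1, a scaffold protein of lipid rafts and a common vesicle marker, had 59.2, 62.8 and 63.6 CPM in TG livers, against 28.6, 33.3 and 34.1 CPM in WT livers. Its log2 fold change was 0.82 (SE 0.17), with an adjusted p of 0.343 by edgeR and 0.0111 by DESeq2, and the 3 livers of each group lay close together. Sdcbp, which encodes syntenin, the adaptor that links syndecans and CD63 to vesicle budding, averaged 113 ± 29.8 CPM in TG livers, against 66.3 ± 20.5 CPM in WT livers, with an edgeR adjusted p of 0.386. Smpd3, a neutral sphingomyelinase, had 287, 1261 and 402 counts in TG livers, against 320, 75 and 213 counts in WT livers, with overlapping groups and an edgeR adjusted p of 0.437, and Stam2, a sorting adaptor, was at 0.34 (SE 0.16) on the log2 scale. The sorting genes Pdcd6ip and Tsg101, which encode ALIX and an ESCRT subunit, were at 0.12 (SE 0.16) and -0.05 (SE 0.17), and the lysosomal membrane genes Lamp1 and Lamp2 at 0.06 (SE 0.28) and 0.00 (SE 0.30), on the log2 scale; these 4 were chosen after their values were seen.

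**Figure D5:**
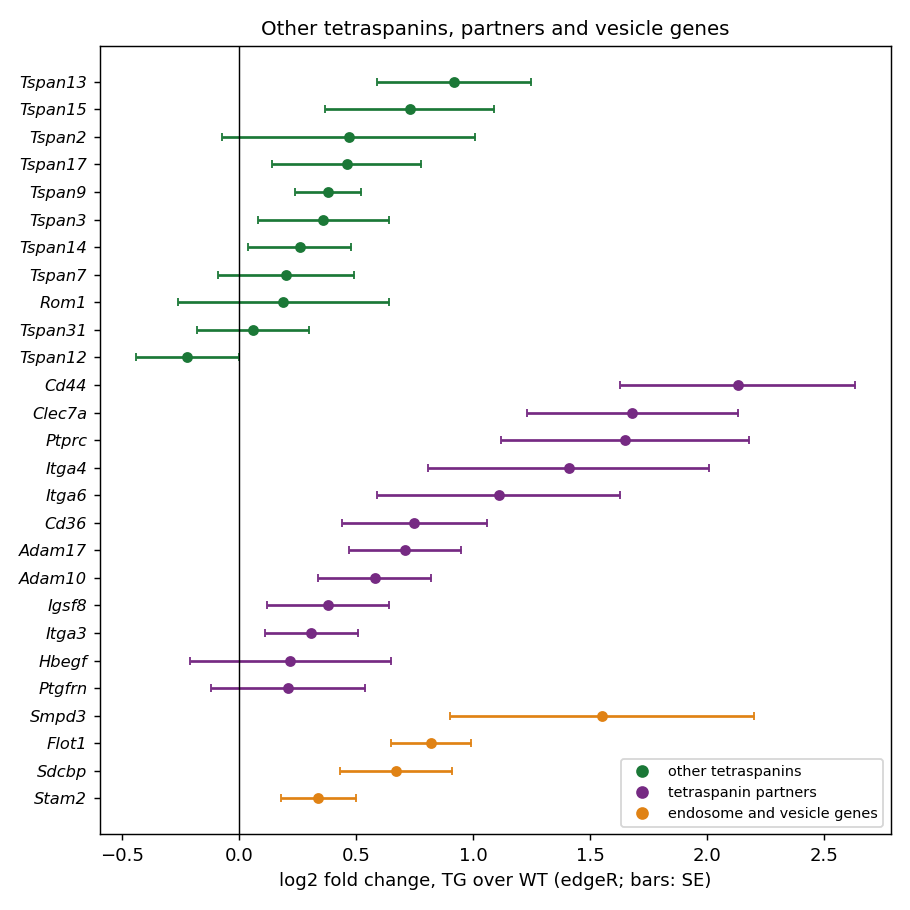
Log2 fold change, TG over WT, with SE (edgeR), of 11 other tetraspanins, 12 partners and 4 endosome and vesicle genes named by rule. Cd44 is highest at 2.13, Flot1 is at 0.82 with an SE of 0.17, and no gene shown passed the adjusted threshold with edgeR.

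Genes whose profile over the 6 libraries was closest to a member were found among 10027 other genes with at least 5 CPM, by the root mean square difference of centred log2 values. Nearest to Cd9 were Il1a (0.128), which encodes interleukin 1 alpha, Cmtm3 (0.173) and Rragd (0.178), a Rag GTPase of lysosomal nutrient sensing. Il1a had 8.00, 11.2 and 8.06 CPM in TG livers, against 2.67, 2.75 and 4.99 CPM in WT livers. Cd63 ranked 13 from Cd9 and Cd9 ranked 6 from Cd63 (0.218), a likeness that the choice of both genes on these 6 livers partly fixed. Nearest to Cd63 were Osbpl3 (0.115), an oxysterol-binding protein, Anxa5 (0.167), which binds phosphatidylserine, and Slc10a2 (0.180), a bile acid transporter. Osbpl3 had 22.9, 29.0 and 27.7 CPM in TG livers, against 5.88, 7.18 and 15.9 CPM in WT livers. Nearest to Cd53 were Epb41l3 (0.041), Mpeg1 (0.066), which encodes the macrophage pore-forming protein perforin-2, and Fcer1g (0.072), the common Fc receptor gamma chain. Mpeg1 had 321, 579 and 143 CPM in TG livers, against 77.2, 57.1 and 136 CPM in WT livers. Nearest to Cd81 were Ctps2 (0.067), a CTP synthase, Abhd12 (0.073) and Tcf3 (0.074), a transcription factor, and Cd9 ranked 7544 from it. The likeness is over 6 libraries that also share their depth and scaling.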

How the data were processed

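The values were read counts per Ensembl gene, whole numbers and not normalized, deposited by the authors as 1 table with 1 column per liver, and all 6 columns were matched to samples by title. TopHat, Cufflinks and mm10 appear in the submitters' processing notes without versions, and the counter, its annotation and strand mode were not given in the sources used here. Symbols matched 52403 of 52550 identifiers, and positions and exon lengths came from GENCODE M21 (mm10). The design text gives 3 male mice a group, and p-values measure the spread between them.

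Genes were filtered with filterByExpr of edgeR 4.0.16 (R 4.3.3), scaled by TMM, and compared with the robust quasi-likelihood test, two-sided, with Benjamini-Hochberg adjustment over 14031 genes and a threshold of 0.05. Fold changes are log2, TG over WT, and the SE is the fold change over the root of F. CPM are by library size unless called TMM-scaled. The alternatives were DESeq2 1.42.0, limma 3.58.1 voom, other scalings and filters, a replicate block, and each liver left out. Limits from counts cover counting error only. With 3 against 3 livers an exact permutation test cannot go below a p of 0.10, so none was run. Named genes were the 9 members, other tetraspanins with a mean of at least 1 CPM, fixed partners, up to 4 more of the partner and vesicle lists by unadjusted p, the 3 nearest profiles, and Slc7a11. A listed partner and a listed marker are not reported here. Members and lists were chosen with earlier results of these data known.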

Additional observations from a re-analysis of the deposited data

How the results depend on the processing

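EdgeR called 0 of all genes and 0 of the tetraspanins, partners and vesicle genes outside the 9, also with other scalings, other filters and the replicate block. DESeq2 called 390 genes, 3 of them in these lists (Cd44, Clec7a and Flot1), and limma voom 1 and 0. With each liver left out in turn, edgeR called 0 to 305 genes, 305 of them without TG replicate 3, and 0 to 3 in the lists, Cd44, Itga4 and Ptprc without TG replicate 3; the cause was not tested. The log2 fold change lay between 1.21 and 1.42 for Cd9 and between 1.09 and 1.60 for Cd63 over all 15 settings, lowest for Cd63 without WT replicate 1 and highest without WT replicate 3. Cd81 lay between 0.28 and 0.53, Cd37 between 1.16 and 1.87, Cd53 between 1.21 and 2.25, Cd151 between 0.17 and 0.34 and Tspan4 between -0.58 and -0.10. Cd82 (-0.26 to 0.16) and Tspan33 (-0.49 to 0.07) had either sign. Alternatives added after seeing the data kept 4 members without overlap with TMM scaling, where 9.22% of all genes lay above. With a liver left out 4 to 6 members did not overlap, 6 of them without WT replicate 3, where 32.5% of all genes lay above. With fewer livers any gene separates more easily, and the members were chosen on this comparison, so nothing is read from these counts.

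Some small differences changed sign. With a liver left out, the log2 fold change of Hbegf ran from -0.03 to 0.62, Ptgfrn from -0.04 to 0.48, Rom1 from -0.14 to 0.39, Tspan31 from -0.17 to 0.19 and Tspan7 from -0.05 to 0.38.

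The labels give both groups replicate numbers 1 to 3 and no shared litter or day. Deviations from the group means of same-numbered livers correlated at 0.15, -0.224 and 0.105 across genes, so the numbers were not taken as pairs. The block moved the genes at an unadjusted p below 0.05 to 1109, against 1551 without it, and the log2 fold change of Cd9 was 1.30 and that of Cd63 1.32 with it.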
